A study of Mus musculus with 8 samples.

Results

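The EGF family and its ErbB receptors were described here through 10 genes: the ligand genes Hbegf, Btc, Tgfa, Nrg1, Nrg2 and Nrg3, and the receptor genes Egfr, Erbb2, Erbb3 and Erbb4. Each was taken from the deposited log2 table as the transcript cluster (the probes of a gene, summarised to a single value) that carries exactly 1 gene symbol. All 10 had such a cluster, out of 19938 genes measured in that way. The cuprizone group held 4 arrays of corpus callosum from mice fed 0.25% cuprizone, a copper chelator that damages oligodendrocytes, for 1 week. The control group held 4 arrays from mice on normal diet. Mice of both groups were male wild-type C57BL/6 animals, 8 weeks old per the labels, and were perfused before the callosum was dissected by hand. The labels call the arrays of a group biological replicates and do not say whether each RNA came from a single animal or a pool. The p-values therefore weigh the difference between diets against the spread between these samples, whichever they were.

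The ligands of this family are made as membrane-anchored precursors, and proteases on the cell surface release their active part. The released ligand joins receptors into pairs, which pass the signal to the Ras-ERK and PI3K-AKT routes. Hbegf, Btc and Tgfa encode ligands of EGFR, and those of Hbegf and Btc also bind ERBB4. Nrg1 and Nrg2 encode neuregulins that bind ERBB3 and ERBB4, and Nrg3 encodes a ligand of ERBB4. ERBB2 has no known ligand of its own and serves as a partner, while ERBB3 has a weak kinase and signals through its partners. In white matter, neuregulin and EGFR signalling are known for their parts in the growth, survival and differentiation of the oligodendrocyte lineage, and EGFR also for its part in astrocyte activation.

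The diets separated along the leading principal component of the 23410 gene-named clusters tested, which took up 52.2% of their variance. Replicate 2 of each group lay nearest to the opposite diet there: the cuprizone array scored 8.73, where its group mates scored 16.5 to 22.5, and the control array scored -13.2, where its group mates scored -18.6 to -18.1. Of the markers listed for mature oligodendrocytes, 10 of 10 analysed were lower with cuprizone. The mean of that list lay between 8.27 and 9.12 (log2 level) on cuprizone arrays, against 10.9 to 11.1 on control arrays. The neuron marker list had a mean of 11.8 on each cuprizone array and between 11.8 and 11.9 on the control arrays. Of these markers, 0 of 7 passed the threshold. How far neurons were part of the dissected tissue was not tested. Choroid plexus and ependyma markers passed in 0 of 5 cases, but their list mean differed between arrays of the same diet. It ran from 7.67 to 8.74 on cuprizone arrays and from 7.67 to 9.02 on control arrays. The mean was higher on replicates 2 and 4 of both groups than on replicates 1 and 3. That order was shared by Ttr, Folr1 and Kcnj13, and not by Foxj1 and Ccdc153. Levels are compared within a gene only, since probes of different genes differ in brightness. How far each cluster stood above background is unknown.

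After 1 week of cuprizone the transcripts of 2 EGFR ligands, Hbegf and Btc, and of EGFR itself were higher, and the transcript of the neuregulin receptor ERBB3 was much lower. Hbegf was 2.08-fold higher, Btc 1.83-fold higher and Egfr 1.35-fold higher, while Erbb3 was 2.68-fold lower. Tgfa, the 3 neuregulin genes, Erbb2 and Erbb4 did not pass the threshold, a limma p under 0.05 after Benjamini-Hochberg adjustment over all clusters tested. Thus 3 of 10 genes rose, where 4.71% of all clusters did, and 1 of 10 fell, where 3.52% did. Calls in either direction made up 8.22% of all clusters. Without replicate 2 of both groups, the counts among the 10 genes were again 3 higher and 1 lower.

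**Figure D1:**
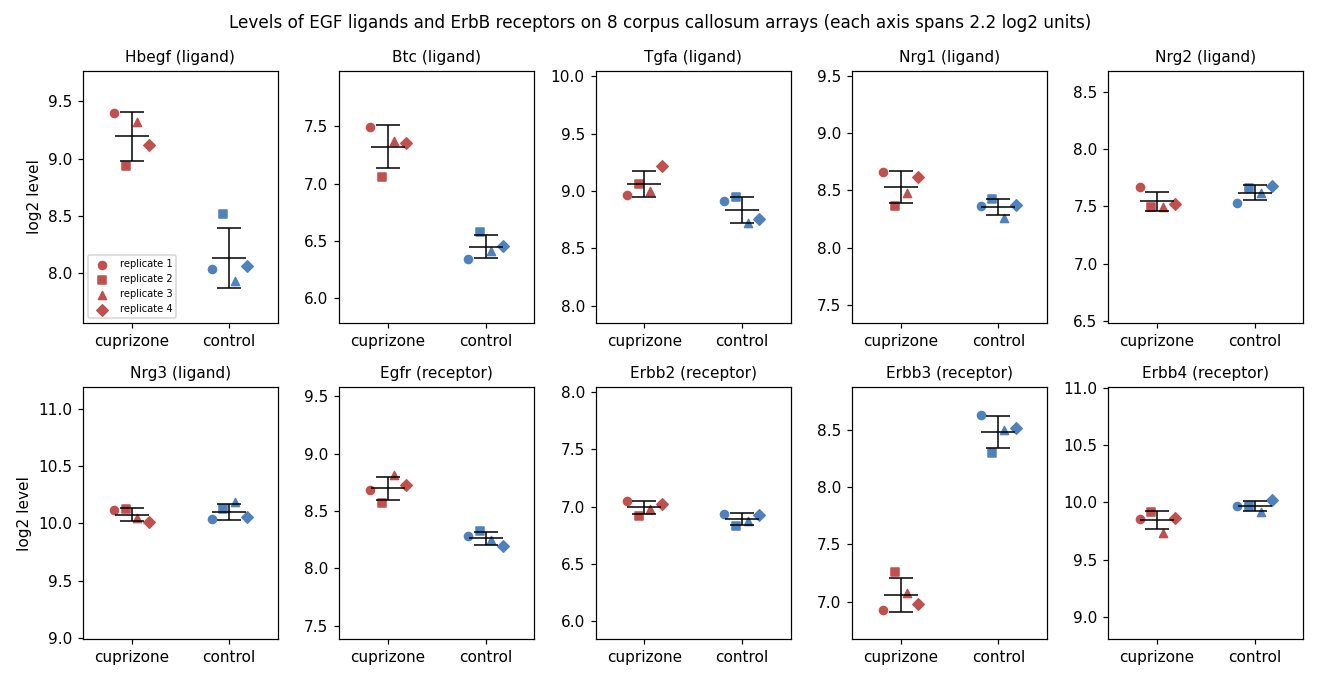
Log2 level (vertical axis, 2.2 log2 units in every panel) of the 6 ligand and 4 receptor genes on 4 cuprizone arrays (left, red) and 4 control arrays (right, blue). Marker shapes give the replicate number, and bars give the mean and SD. The groups are apart in Hbegf, Btc, Tgfa and Egfr, with cuprizone higher, and in Erbb3, with cuprizone lower.

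Among the ligands, Hbegf (transcript cluster 10458340) encodes heparin-binding EGF-like growth factor, which binds EGFR and ERBB4 and is held near cells by heparan sulphate. It read 9.40, 8.93, 9.32 and 9.12 on cuprizone replicates 1 to 4, against 8.04, 8.52, 7.93 and 8.06 on control replicates 1 to 4 (log2 levels). The groups did not overlap, and control replicate 2 was the highest control, 0.41 below the lowest cuprizone array. The log2 fold change was 1.06 ± 0.13 (SE, n = 4 each, limma adjusted p = 0.000566), the 109th largest increase among 1102 clusters called higher.

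Btc (transcript cluster 10531274) encodes betacellulin, another ligand of EGFR and ERBB4. It read 7.50, 7.06, 7.37 and 7.36 on the cuprizone arrays, against 6.34, 6.58, 6.42 and 6.46 on the control arrays. Every cuprizone array lay above every control, by at least 0.48, and as with Hbegf the nearest arrays were replicate 2 of each group. The log2 fold change was 0.87 ± 0.09 (limma adjusted p = 0.000172), with a 95% interval of 0.67 to 1.07.

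Tgfa (transcript cluster 10539692) encodes transforming growth factor alpha, an EGFR ligand. Its levels were 8.96, 9.06, 9.00 and 9.22 with cuprizone, against 8.91, 8.95, 8.72 and 8.76 in controls. The groups were apart by a narrow margin, between cuprizone replicate 1 and control replicate 2. Its log2 fold change of 0.23 ± 0.08 missed the threshold (limma adjusted p = 0.102), with a 95% interval of 0.06 to 0.39 before any adjustment.

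The neuregulin genes moved little, and in each the groups overlapped. Nrg1 (transcript cluster 10578045), the main neuregulin of axons, read 8.66, 8.37, 8.47 and 8.62 on cuprizone arrays, against 8.37, 8.43, 8.26 and 8.37 on control arrays. Its log2 fold change was 0.17 ± 0.07 (limma adjusted p = 0.204), with a 95% interval of 0.01 to 0.34. Only cuprizone replicate 2 lay within the range of the controls.

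Nrg2 (transcript cluster 10458323) read 7.67, 7.50, 7.49 and 7.52 with cuprizone, against 7.53, 7.66, 7.62 and 7.67 in controls. Cuprizone replicate 1 stood within the control range and the other cuprizone arrays just below it. The log2 fold change was -0.07 ± 0.06 (limma adjusted p = 0.568), with an interval of -0.21 to 0.06. Nrg3 (transcript cluster 10419049) read 10.11, 10.13, 10.05 and 10.01 with cuprizone, against 10.04, 10.12, 10.19 and 10.06 in controls. Its log2 fold change was -0.03 ± 0.06 (limma adjusted p = 0.866), with an interval of -0.15 to 0.10.

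Turning to the receptors, Egfr (transcript cluster 10374366) encodes the receptor of the EGF-type ligands. It read 8.68, 8.57, 8.81 and 8.73 on the cuprizone arrays, against 8.29, 8.32, 8.25 and 8.19 on the control arrays. The groups did not overlap, with a gap of 0.25 that again lay between replicate 2 of each group. The log2 fold change was 0.43 ± 0.06 (limma adjusted p = 0.00139), smaller in size than those of Hbegf and Btc.

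Erbb3 (transcript cluster 10373467) encodes a neuregulin receptor that oligodendrocytes express. It read 6.93, 7.26, 7.08 and 6.98 with cuprizone, against 8.63, 8.29, 8.49 and 8.52 in controls. The gap between the groups was 1.03 log2 units, wider than the whole range of either group. Its log2 fold change was -1.42 ± 0.09 (limma adjusted p = 4.74e-06), with a 95% interval of -1.62 to -1.23, and it was the 36th largest decrease among 823 clusters called lower.

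Erbb3 fell beside the mature oligodendrocyte markers, whose list median was -2.08 against -0.01 over all clusters tested. On the cuprizone arrays the mean of that list minus its control mean was -2.76, -1.92, -2.08 and -2.31 log2 units for replicates 1 to 4. Erbb3 had the same order on those arrays, lowest on replicate 1 and highest on replicate 2. Among the controls, replicate 2 was the lowest for both, at -0.15 on the list mean. In dissected tissue, fewer cells of a type and less RNA per cell cannot be told apart, and the part of oligodendrocyte number in the fall of Erbb3 was not tested. Markers of oligodendrocyte progenitors passed the threshold in 0 of 7 cases, with list means of 8.54 to 8.77 on cuprizone arrays and 8.68 to 8.82 on control arrays.

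Erbb2 (transcript cluster 10380896), the gene of the shared partner receptor, read 7.05, 6.92, 6.98 and 7.02 with cuprizone, against 6.94, 6.83, 6.88 and 6.93 in controls. The groups overlapped at cuprizone replicate 2, and the log2 fold change was 0.10 ± 0.05 (limma adjusted p = 0.329), with an interval of -0.02 to 0.22. A further cluster annotated to both Erbb2 and Sympk was not used for either gene, and stood at 0.11 (limma adjusted p = 0.514).

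Erbb4 (transcript cluster 10355278) encodes a neuregulin receptor known from inhibitory neurons. It read 9.86, 9.92, 9.73 and 9.87 with cuprizone, against 9.97, 9.97, 9.91 and 10.02 in controls. Cuprizone replicate 2 lay just inside the control range and the others below it. Its log2 fold change was -0.13 ± 0.06 (limma adjusted p = 0.246), with an interval of -0.25 to 0.0013. The inhibitory neuron markers passed the threshold in 0 of 7 cases, with list means of 9.39 to 9.50 on cuprizone arrays and 9.32 to 9.48 on control arrays.

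Set side by side, the ligands and the receptors differed in their mix of directions. Of 6 ligand genes 2 rose and 0 fell, with a median log2 fold change of 0.20. Of 4 receptor genes 1 rose and 1 fell, with a median of -0.01, about that of all clusters (-0.01). Within these 6 ligands, the groups did not overlap in 3 of 3 EGFR ligand genes, with the cuprizone arrays higher and a median of 0.87. They overlapped in the 3 neuregulin genes, with a median of -0.03. The contrast holds for the chosen members only. Of the other EGF family ligand genes measured, Egf, Ereg, Epgn and Nrg4, 0 of 4 had groups apart, with a median of -0.02. Areg, also listed, had no cluster with exactly 1 gene symbol. The list mean was 5.47 on cuprizone arrays and 5.49 on control arrays, and whether these genes stood above background is unknown. Over all clusters, 8.24% had groups apart with the cuprizone arrays higher and 7.09% with them lower. Past the limma threshold, 4.71% of all clusters rose and 3.52% fell. No test was made between ligands and receptors, since these genes were chosen with earlier results of the same arrays known.

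**Figure D2:**
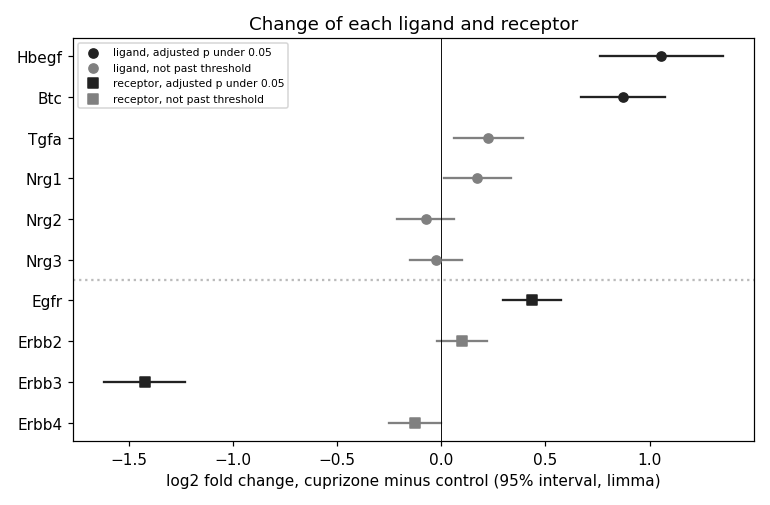
Log2 fold change, cuprizone minus control (horizontal axis), of each ligand gene (circles, upper block) and receptor gene (squares, lower block), with the 95% interval from limma. Black marks passed the adjusted threshold: Hbegf, Btc and Egfr lie right of 0 and Erbb3 lies left of 0 at -1.42.

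The rises of Hbegf, Btc and Egfr stood beside changes in glial markers. Of the microglia markers 4 of 6 measured rose and 0 fell, with list means of 8.11 to 8.44 on cuprizone arrays against 7.88 to 7.94 on control arrays. Of the astrocyte markers 3 of 7 rose and 2 fell, with list means of 10.4 to 10.7 on cuprizone arrays against 10.5 to 10.6 on control arrays. Those that rose were Gfap, the filament gene of reactive astrocytes, at 0.96 ± 0.06 (limma adjusted p = 4.72e-06), and Slc1a3 and Aldh1l1, at 0.32 each. Those that fell were Slc1a2, at -0.60 ± 0.07 (limma adjusted p = 0.000315), and Gja1, at -0.43 ± 0.11 (0.0288). The median of the astrocyte list was -0.12. Over all clusters, 4.71% rose and 3.52% fell. The order of arrays differed between genes and markers: the microglia mean was lowest on cuprizone replicate 1, at 0.19 above the control mean, where Hbegf and Btc were highest. Egfr was highest on cuprizone replicate 3, as was the microglia mean, at 0.53 above the control mean. Markers of blood leukocytes and of vessels passed the threshold in 0 of 6 and 0 of 7 cases. The part of cell composition in these rises was not tested.

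**Figure D3:**
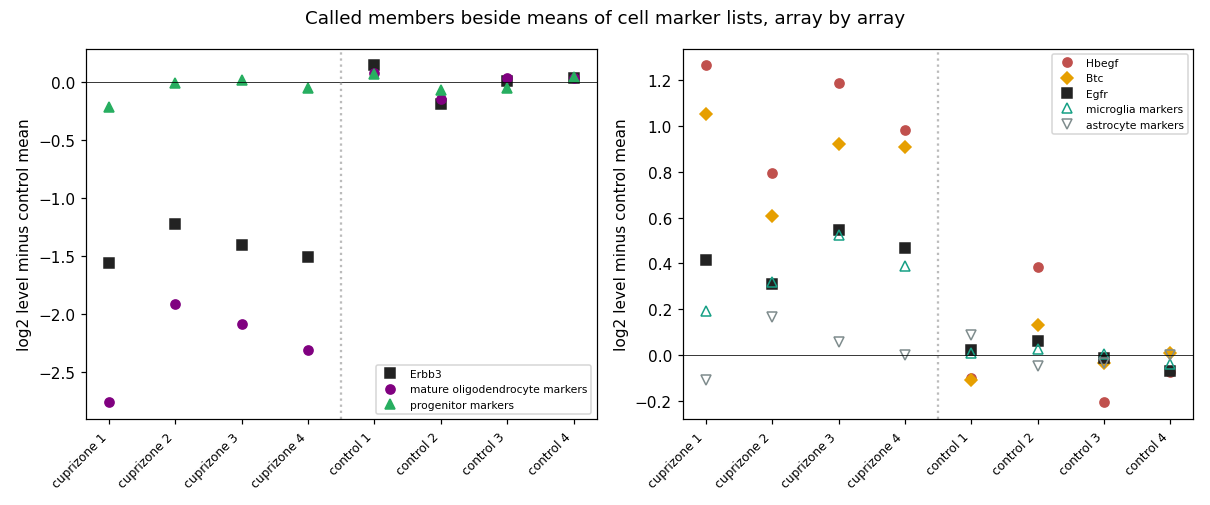
Log2 level minus the control mean (vertical axis) on each of the 4 cuprizone and 4 control arrays (horizontal axis), for Erbb3 with the means of the mature oligodendrocyte and progenitor lists (left) and for Hbegf, Btc and Egfr with the means of the microglia and astrocyte lists (right). Erbb3 and the mature oligodendrocyte mean are both lowest on cuprizone replicate 1, and the progenitor mean stays between -0.22 and 0.07 on all 8 arrays.

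The stretches before the start sites of Btc and Egfr, the called genes whose promoters were matched in the RefSeq table used (GRCm38.p6), are shown to set the rising ligand and receptor beside each other. Each is the 250 bases before the annotated start, 5′ to 3′ on the gene's strand. The Btc stretch is chr5:91402995-91403244 on the minus strand and the Egfr stretch is chr11:16751953-16752202 on the plus strand. Capitals mark a match to any of the motifs searched on both strands, which were the AP-1 site TGANTCA, the CHOP-ATF element TGATGNAA, the GC box GGGCGG and the TATA box TATAAA.
Btc: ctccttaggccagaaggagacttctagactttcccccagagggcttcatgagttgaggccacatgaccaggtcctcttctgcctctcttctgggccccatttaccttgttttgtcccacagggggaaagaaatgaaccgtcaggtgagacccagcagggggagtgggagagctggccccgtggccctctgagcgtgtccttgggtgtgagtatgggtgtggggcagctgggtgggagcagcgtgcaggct
Egfr: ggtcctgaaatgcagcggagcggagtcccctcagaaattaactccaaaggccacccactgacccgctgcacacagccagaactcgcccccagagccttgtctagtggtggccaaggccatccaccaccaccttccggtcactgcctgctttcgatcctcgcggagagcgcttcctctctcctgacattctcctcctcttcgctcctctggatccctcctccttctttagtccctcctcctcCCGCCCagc
The Egfr stretch held 1 GC box, read on the opposite strand and starting 9 bases before the start site, a motif found in 32.9% of 27025 promoters of the same length. The Btc stretch held none of the 4 motifs. The AP-1 site was found in 6.87% of those promoters, the CHOP-ATF element in 3.53% and the TATA box in 13.0%, and none of these letters occurred in either stretch. GC made up 59.6% of the Btc stretch and 60.8% of the Egfr stretch, against a median of 52% over all promoters.

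The remaining genes of the pathway were described by 6 lists. Across them 12 of 70 measured genes rose and 5 fell, where 4.71% of all clusters rose and 3.52% fell, and the median log2 fold change was 0.03. Other EGF family ligand genes measured, Egf, Ereg, Epgn and Nrg4, had 0 of 4 past the threshold by limma, and Areg was not measured. Before adjustment, 0 had a limma p under 0.05, where 4867 of 23410 clusters tested did. Ereg, which encodes epiregulin, stood at -0.09 ± 0.06 and Nrg4 at 0.05 ± 0.07, with the smallest p of the list.

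Genes that release or carry the ligands fell in 2 of 9 cases and rose in 0, with a median of -0.01. The shares over all clusters were 3.52% lower and 4.71% higher. Bace1, a protease that cleaves neuregulin 1, stood at 9.45 to 9.71 on cuprizone arrays against 9.89 to 10.07 on control arrays, and its log2 fold change was -0.38 ± 0.07 (limma adjusted p = 0.00500). Frmd8, whose product stabilises the ADAM17 sheddase complex, fell by 0.24 on the log2 scale (limma adjusted p = 0.0341). Its adjusted p was 0.0596 to 0.0992 when any 1 of cuprizone replicates 1, 2 and 4 or control replicates 1, 2 and 4 was left out. Adam10 and Adam17, the main sheddase genes, did not pass the threshold, at -0.12 ± 0.07 and 0.10 ± 0.05.

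Of 7 genes for proteins that bind the receptors or ligands, 1 rose and 1 fell, with a median of -0.08. Among all clusters 4.71% rose and 3.52% fell. Cd44, a hyaluronan receptor that can hold HB-EGF at the cell surface, read 8.41, 7.98, 8.63 and 8.32 on cuprizone arrays, against 6.26, 6.96, 6.26 and 6.19 on control arrays. Its log2 fold change was 1.92 ± 0.17 (limma adjusted p = 6.31e-05), 3.78-fold higher, with replicate 2 again the cuprizone array nearest to the controls and the control nearest to cuprizone. Cd82, a tetraspanin known to restrain EGFR, fell by 1.09 on the log2 scale (limma adjusted p = 0.000598), with 8.25 to 8.79 on cuprizone arrays against 9.40 to 9.97 on control arrays. Cd9, a tetraspanin partner of the HB-EGF precursor that is also part of myelin, stood at -0.19 ± 0.08 and did not pass (limma adjusted p = 0.224).

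The kinases and adaptors that relay the signal had 0 of 19 measured genes past the limma threshold, with a median of 0.01. Before adjustment, 1 of 19 had a limma p under 0.05, where 4867 of 23410 clusters tested did. Leading the list by p were the adaptor gene Shc1, at 0.18 ± 0.06 (limma adjusted p = 0.107), and the kinase gene Akt2, at 0.12 ± 0.06.

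Among 17 genes listed as negative regulators of the receptors and of ERK signalling, 4 rose and 1 fell, with a median of 0.02. Of all clusters, 4.71% rose and 3.52% fell. That label was given to the list as a whole. The direction in which each gene acts, Usp8 and Lrig3 included, was not tested in this tissue. Lrig1, a membrane protein that leads ErbB receptors to degradation, read 8.20, 8.42, 8.59 and 8.37 with cuprizone, against 7.86, 7.97, 7.68 and 7.71 in controls, a rise of 0.59 ± 0.09 on the log2 scale (limma adjusted p = 0.00196). Spry2 and Spry4 encode sprouty inhibitors of the Ras-ERK route, and rose by 0.41 ± 0.08 and 0.29 ± 0.07. Usp8, a deubiquitinase of the endosome that acts on EGFR, rose by 0.24 ± 0.05. The count that rose was 2 without cuprizone replicate 3, and 2 without control replicate 1, since Spry4 and Usp8 then missed the threshold. Usp8 also missed it without control replicate 2 (limma adjusted p = 0.0649) or 4 (0.0620).

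Lrig3, named after its values were seen because it was the single gene of that list that fell, stood at -0.31 ± 0.08 (limma adjusted p = 0.0301). Its adjusted p was 0.0680 to 0.0872 when any 1 of cuprizone replicates 1 and 4 or control replicates 1, 2 and 3 was left out. The feedback inhibitor of EGFR encoded by Errfi1 was measured at -0.09 ± 0.09, and Dusp6, an ERK phosphatase gene, at 0.01 ± 0.09. Neither passed the threshold.

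Genes known to respond to ERK signalling had the most calls of the 6 lists: 7 of 14 rose and 1 fell, with a median of 0.31. Over all clusters, 4.71% rose and 3.52% fell. Emp1, a membrane protein gene, read 8.71, 8.59, 8.82 and 8.42 on cuprizone arrays, against 7.25, 7.63, 7.03 and 7.11 on control arrays, a rise of 1.38 ± 0.13 on the log2 scale (limma adjusted p = 6.75e-05). The growth regulator Myc rose 2.46-fold, with 8.08, 7.95, 8.68 and 8.24 on cuprizone arrays against 6.81, 7.23, 6.74 and 6.97 on control arrays. Phlda1 rose 1.62-fold and the small Maf factor Maff 1.40-fold. The others that rose were Fosl1, Fos and Ier3, and the gene that fell was the ETS factor Etv1, at -0.41 ± 0.07 (limma adjusted p = 0.00443), all of them named after their values were seen. These genes respond to many other stimuli too, and which receptor lay upstream was not tested. Etv4, Etv5 and Egr1 did not pass, at -0.09 ± 0.07, 0.12 ± 0.07 and 0.20 ± 0.09.

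**Figure D4:**
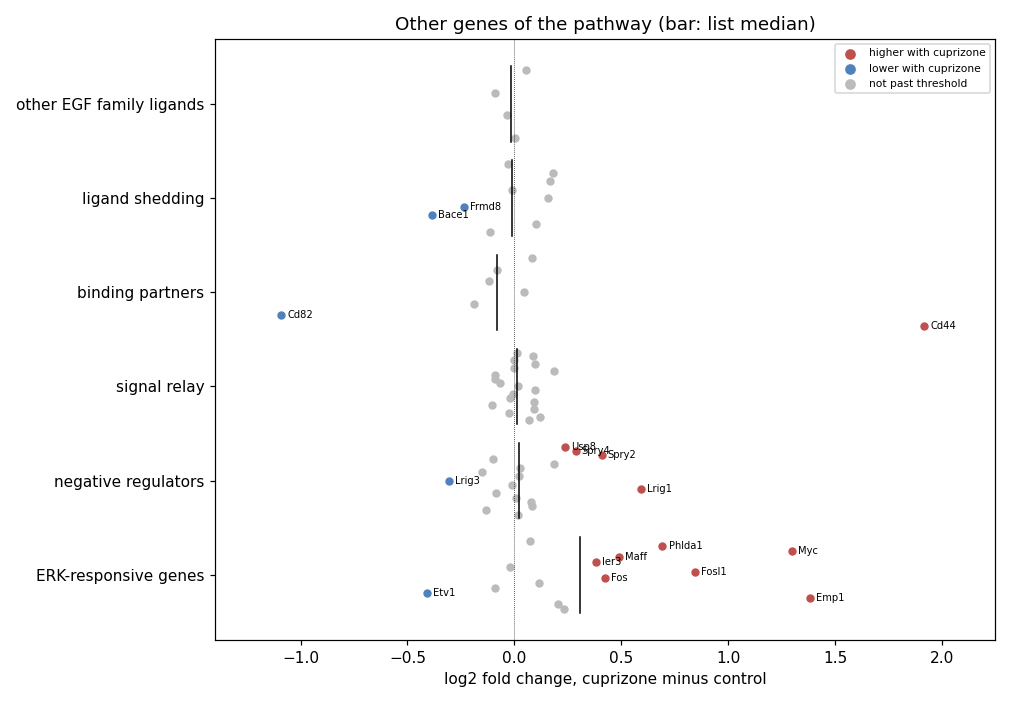
Log2 fold change, cuprizone minus control (horizontal axis), of each measured gene in 6 pathway lists (rows), spread vertically in alphabetical order for legibility. Red points were higher and blue points lower past the limma threshold, grey points did not pass, and bars give list medians, from -0.08 for binding partners to 0.31 for ERK-responsive genes.

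The clusters closest in profile to each called gene were sought over the 8 arrays among 18893 other single-gene clusters, by the root mean square difference between log2 profiles centred on their own control means. Closest to Hbegf were Tnfrsf12a (0.092 log2 units), the TNF receptor gene Tnfrsf1a (0.110) and Mdm2 (0.111), which encodes the ubiquitin ligase of p53. For Btc they were thrombospondin 1, Thbs1 (0.034), Usp53 (0.063) and Ppp1r15a (0.093), a phosphatase subunit gene of the stress response. Around Egfr stood 2 clusters annotated to the ribosomal protein gene Rps4x (0.030 each), a gene with near-identical copies whose signal is uncertain, and the sphingosine phosphate lyase gene Sgpl1 (0.030). Nearest to Erbb3 were the netrin receptor gene Unc5b (0.072), Ttyh2 (0.083) and the lysophosphatidic acid receptor gene Lpar1 (0.089). These closest profiles carried log2 fold changes from -1.48 for Ttyh2 to 1.00 for Tnfrsf1a. Their nearness to those of the matched genes follows from the measure, which includes the shift between diets.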

How the data were processed

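Total RNA (150 ng per sample, per the labels' protocols) was hybridised to Affymetrix Mouse Gene 1.0 ST arrays. The deposited values are log2 levels per transcript cluster; the submitters' processing notes name Affymetrix Expression Console, RMA and Transcriptome Analysis Console, with no versions or roles. The arrays have near-identical distributions, so changes are relative to the bulk of the transcripts. Of 28944 clusters, 23410 had at least 1 gene symbol in the platform annotation and were tested, and 21789 had exactly 1. Of the latter, 21698 matched a RefSeq gene by Entrez identifier and 0 symbols were updated. The gene listed as Nrdc was found under Nrd1.

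Groups followed the sample labels. The test was limma 3.58.1 in R 4.3.3 (lmFit and eBayes at default settings, two-sided, no covariate or filter), with Benjamini-Hochberg adjustment over all clusters tested. It was also tested on simulated data. Errors after ± are SEs of the log2 fold change, and 95% intervals are unadjusted. Batches were not tested, since scan dates were not analysed here.

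The members and lists were chosen with earlier results of these data known. Named were all members, and per pathway list the up to 4 called genes with the smallest p, or the 2 with the smallest p where none passed. For each called member the 3 closest profiles were named; symbols of predicted, clone-named, olfactory, vomeronasal and small RNA genes were skipped. Cell markers and further list genes named in the text stand beside member results and carry no claim of their own. Alternatives were leaving out arrays, the replicate number as a block, a trended robust prior, array weights, renormalization, median centring and other sets of clusters.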

Additional observations from a re-analysis of the deposited data

Results flagged for a closer look

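In groups of 4 arrays, an array is listed here when its gap to the nearest other array as a share of the group's range exceeds Dixon's 95% critical value, which chance alone gives in about 1 in 20 groups. Among 31 genes in both groups (62 groups), 2 arrays did so. Nrg2 on cuprizone replicate 1 read 7.67, against 7.49 to 7.52 on the other cuprizone arrays. Cd44 on control replicate 2 read 6.96, against 6.19 to 6.26 on the other controls.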

How the results depend on the processing

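The 4 calls among the 10 members kept their direction and their side of the threshold under all alternatives in which their cluster was tested, 17 in all. Leaving out any 1 array gave log2 fold changes of 0.99 to 1.18 for Hbegf, 0.81 to 0.96 for Btc, 0.40 to 0.48 for Egfr and -1.49 to -1.37 for Erbb3, with adjusted p of at most 0.00667. Over the other alternatives their adjusted p was at most 0.0118. Btc was not tested among clusters brighter than the median, which left 2 members called higher. The 6 members that were not called stayed so, with adjusted p of 0.0544 at the lowest, for Tgfa. Nrg3 ranged from -0.0476 to 0.00296 when 1 array was left out, and was above 0 without control replicate 3 only. Pathway genes called lower numbered 3 to 5 when 1 array was left out, 3 without replicate 2 of both groups and 3 with the replicate number as a block, against 5, since Frmd8 and Lrig3 then missed the threshold. The cause was not tested. Genes of the negative regulator list that rose numbered 2 without replicate 2 of both groups. Among the brighter clusters 4 ERK-responsive genes were called higher and 0 binding partners, as Cd44, Fosl1, Ier3 and Maff were not tested there. Deviations of same-numbered arrays from their group means correlated between -0.19 and 0.21 over all clusters. Of the cuprizone arrays, 1 of 4 correlated best with its own number, and the main fit was unpaired. The mean of the choroid plexus and ependyma list did go with the number. Minus its control mean, it was -0.65, 0.42, -0.57 and 0.26 on cuprizone replicates 1 to 4. On control replicates 1 to 4 it was -0.44, 0.40, -0.66 and 0.70. Ttr, Folr1 and Kcnj13 were higher on replicates 2 and 4 of both groups than on replicates 1 and 3. Foxj1 was not, with its highest cuprizone level on replicate 3 (8.01). Nor was Ccdc153, at 7.25 and 7.24 on cuprizone replicates 2 and 4, against 7.29 and 7.36 on replicates 1 and 3. The block changed no member's call. Every member had a single cluster, so averaging its clusters was not run. The number of arrays and the unknown signal over background limit the precision.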
